A study of Mus musculus with 32 samples.

Results

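The 10 genes described here are textbook targets of the transcription factor p53, and they were followed in bone marrow-derived macrophages (BMDMs) that lose the DNA exonuclease TREX1 in culture: *Cdkn1a*, *Mdm2*, *Ccng1*, *Bax*, *Bbc3*, *Trp53inp1*, *Phlda3*, *Zmat3*, *Gdf15* and *Eda2r*. They were taken by symbol, and all 10 were found among the 54281 gene identifiers of the count table and passed the filter on low counts that kept 15257 genes. The question was whether *Cdkn1a* moves with the other 9. BMDMs came from *Trex1* FL/FL mice, in which both alleles carry loxP sites, and from *Trex1* WT/FL mice, which keep 1 allele without them. All cells, controls included, carried CreERT2 at the Rosa26 locus, which is active in most cell types, so Cre was not restricted to macrophages. Cultures were exposed to 4-hydroxytamoxifen (4-OHT, 2 µg/ml for 22 h) or left untreated and were harvested on day 1, 2, 3 or 4 after exposure. This gave 16 groups of 2 libraries, 32 libraries in all. The labels name no mouse, batch or replicate number for the libraries, so the p-values measure the spread between libraries, which may be technical, and the numbers 1 and 2 given to them here are only names. The WT/FL control loses its floxed allele after 4-OHT and is therefore a model of reduced rather than full *Trex1*.

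p53, the product of *Trp53*, is held at a low level by MDM2, a ubiquitin ligase, and is stabilised when DNA is damaged. It then binds pairs of half-sites near its targets. p21, the product of *Cdkn1a*, stops the cell cycle by inhibiting cyclin-dependent kinases. *Bax*, *Bbc3* (PUMA) and *Eda2r* belong to the death branch, and *Mdm2* to the feedback that ends the response. *Cdkn1a* is also controlled without p53, for example during differentiation and by cytokines, and for this reason a change of *Cdkn1a* alone is usually read beside other targets.

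Sequence matching the p53 consensus was searched for within 5 kb on each side of the annotated 5′ end of each gene in GRCm39. The consensus was taken as a pair of 10-base half-sites, each with 3 purines, a C, 2 bases that are A or T, a G and 3 pyrimidines, separated by at most 1 base. The C and G of each half-site were required and 1 of the other letters was allowed to differ. The motif reads the same way on both strands. Of the 10 genes, 4 had a match (*Cdkn1a*, *Ccng1*, *Trp53inp1* and *Zmat3*), as had 5.15% of the 15156 tested genes with a window. *Ccng1* and *Zmat3* had 2 matches each. Without a differing letter the share of all genes was 0.581%. A single match for each of the 4 genes is shown here, because these genes differ in how they moved, with the half-sites in capitals and 5 flanking bases in lower case:
Cdkn1a, chr17:29309902-29309921, plus strand, 1 letter off: ttcagGAACATGTCTTGACATGTTCagccc
Ccng1, chr11:40646289-40646308, minus strand, 1 letter off: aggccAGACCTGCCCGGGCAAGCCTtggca
Trp53inp1, chr4:11155112-11155132, plus strand, 0 letters off: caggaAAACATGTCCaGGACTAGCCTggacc
Zmat3, chr3:32418480-32418499, minus strand, 0 letters off: gtgagAAACAAGCCCAGGCATGTCTtggga
The centre of the *Cdkn1a* match lies 24 bases upstream of the annotated 5′ end. The *Ccng1* match shown lies 150 bases upstream, the *Trp53inp1* match 1290 bases upstream and the *Zmat3* match 1674 bases downstream of it. These are matches of letters. Sites outside the window or further from the consensus were not searched for, so a gene without a match may still have one. Binding of p53 was not measured in these libraries.

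Deposited values are estimated counts per gene. Totals ranged from 35120505 to 63760884 per library (median 44841991), and levels are given as CPM, the count of a gene as a share of its library's TMM-scaled total. In 4-OHT-treated FL/FL BMDMs *Trex1* was at 0 CPM on days 1, 3 and 4 and at 0.347 and 0.25 CPM on day 2, against 12.2 to 79.4 CPM in 4-OHT-treated WT/FL cells. Macrophage markers summed to 15780 to 51810 CPM in all libraries. Markers of other cells were low, with *Cd3e*, *Pdgfra*, *Mcpt4* and *Hba-a1* at no more than 3 counts in every library. The highest sum was 0.718 CPM for T cells, 17.8 for neutrophils, 2.50 for dendritic cells, 2.27 for fibroblasts and 0.198 for mast cells and basophils. Erythroid and megakaryocyte markers, of which 1 exceeded 1 CPM, summed to 41.9 to 97.6 CPM in 4-OHT-treated FL/FL and 66.9 to 150.4 CPM in WT/FL libraries, and their part in the results was not tested. In bulk RNA, fewer cells that express a gene and less RNA of it per cell cannot be told apart. The untreated FL/FL pair of day 1 stood apart. Of 8754 genes above a mean of 10 CPM, 86 differed more than 2-fold between its 2 libraries, whereas the other 15 groups had 10 to 25 such genes. This touched *Bbc3* most and is returned to there.

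A member counted as called where edgeR's quasi-likelihood test gave an adjusted p (Benjamini-Hochberg, over all 15257 genes) below 0.01, and every adjusted p below comes from that fit unless another is named. Log2 fold changes are written with their standard error (SE). Fold changes of 10 genes were tested on 4 days, which gives 40 tests per comparison.

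The first comparison was FL/FL against WT/FL after 4-OHT on each day. On day 1 no member was called by this test or by DESeq2. At an unadjusted p below 0.05 (edgeR) there were 2 members, and 308 of all 15257 genes. On day 2 *Cdkn1a* rose and *Trp53inp1* fell. On day 3 *Cdkn1a*, *Ccng1*, *Phlda3* and *Gdf15* rose, and on day 4 *Cdkn1a*, *Ccng1*, *Bax* and *Phlda3* rose. Over the 40 tests, 9 passed upwards, in 5 genes, and 1 downwards. Among all tested genes, 0.00655% rose and 0.0131% fell on day 1, 5.69% and 2.48% on day 2, 6.69% and 5.42% on day 3, and 9.84% and 11.7% on day 4. The median log2 difference of the 10 members was -0.02 on days 1 and 2 and then reached 0.46 (day 3) and 0.40 (day 4), while that of all genes stayed between -0.04 and -0.01. No member exceeded an absolute log2 difference of 1.5 and passed the test. Of all 15257 genes, only 2, 89, 133 and 454 did so on days 1 to 4. The libraries of the 2 genotypes did not overlap for 9 of the 10 members on day 4, but with 2 libraries a group this alone says little: it held for 4 members on day 1 and for 6 in untreated cells on day 4, where no member was called. The share of all genes without such overlap was not computed, so these counts cannot be set against it.

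**Figure D1:**
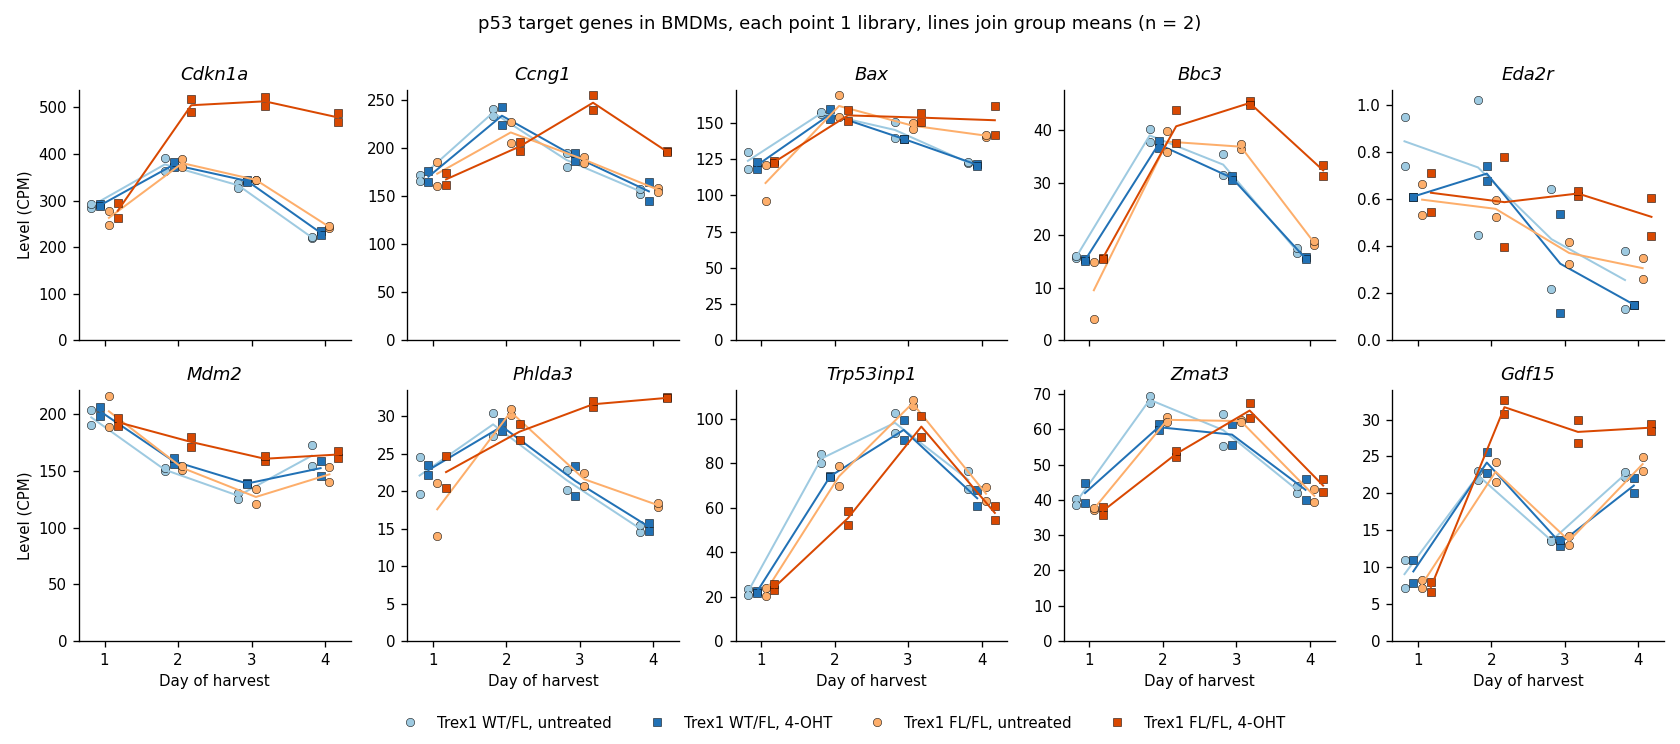
Level in CPM (vertical axes, from 0) of the 10 genes on days 1 to 4 (horizontal axes), 1 point per library and lines through the group means of 2 libraries. The 4-OHT-treated FL/FL libraries (dark orange squares) lie above all others of the same day from day 2 for Cdkn1a and Gdf15, on days 2 and 3 for Mdm2 and from day 3 for Ccng1, Bbc3 and Phlda3. On day 4 they also lie above them for Eda2r and, barely, for Bax. They lie below all others on day 2 for Trp53inp1 and Zmat3 and, barely, on day 4 for Trp53inp1.

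**Figure D2:**
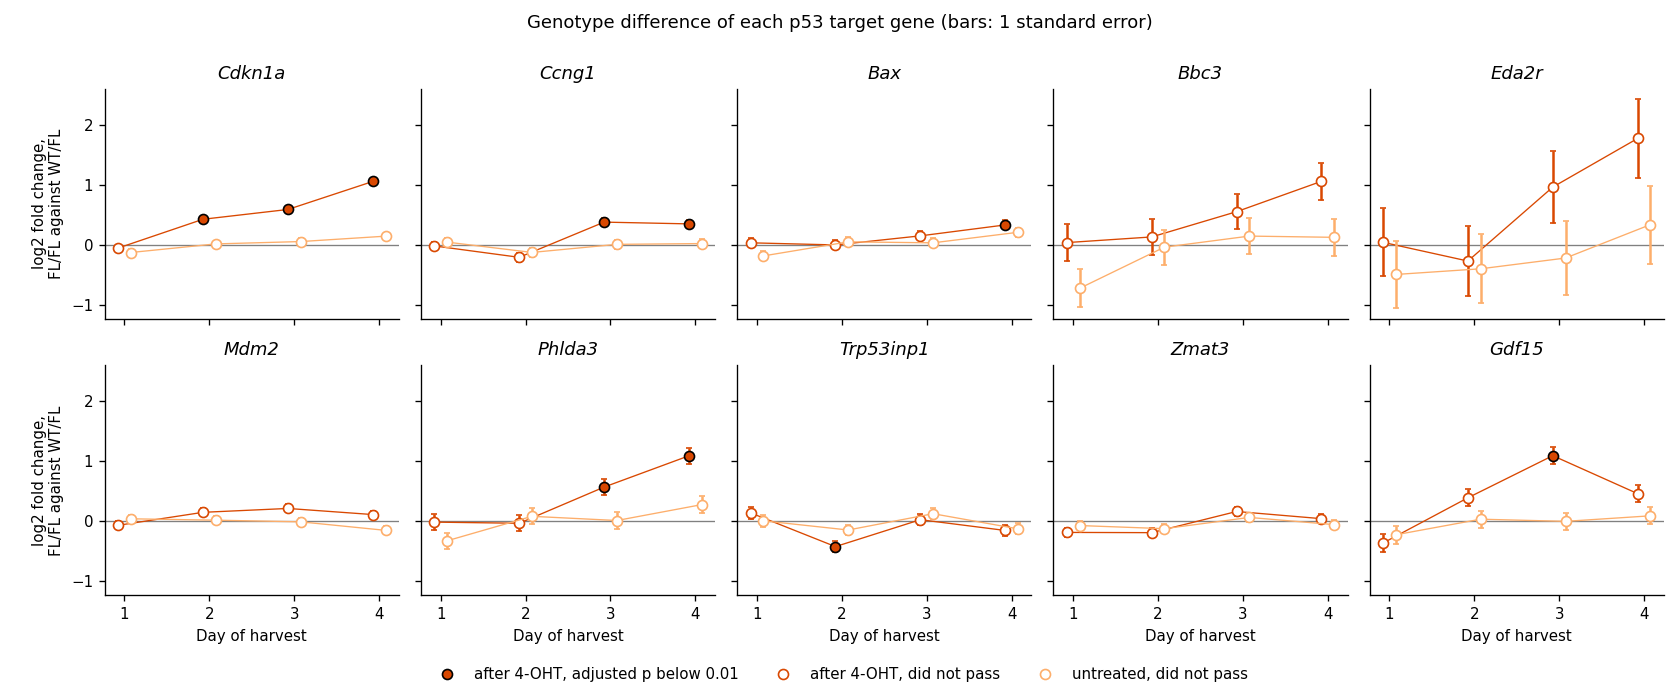
Log2 fold change of FL/FL against WT/FL BMDMs (vertical axes) on days 1 to 4, after 4-OHT (dark orange) and untreated (light orange), with bars of 1 SE. Filled points passed at an adjusted p below 0.01. All untreated points are open.

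*Cdkn1a* (ENSMUSG00000023067, GRCm39 chr17:29309936-29319701, plus strand) encodes the cyclin-dependent kinase inhibitor p21. On day 1 its 2 libraries of 4-OHT-treated FL/FL cells were at 262 and 295 CPM and those of WT/FL cells at 292 and 288 CPM. These overlapped (log2 difference -0.06, SE 0.06, adjusted p = 1). On day 2 FL/FL libraries were at 491 and 518 CPM and WT/FL libraries at 371 and 382 CPM, and on day 3 they were at 523 and 503 against 344 and 340.0 CPM. The groups no longer overlapped on either day. The difference was 0.42 (SE 0.06, adjusted p = 3.89e-06) on day 2 and 0.58 (SE 0.06, adjusted p = 2.41e-08) on day 3. On day 4 the FL/FL libraries remained at 489 and 468 CPM while the WT/FL libraries had fallen to 235 and 227 CPM. This was the largest of the 4 differences, 2.07-fold (log2 1.05, SE 0.06, adjusted p = 9.33e-14). Untreated cells of either genotype were at 221 to 245 CPM on that day. With each of the 32 libraries left out in turn, the difference stayed between 0.38 and 0.46 on day 2, 0.56 and 0.61 on day 3 and 1.02 and 1.08 on day 4, and passed each time. *Cdkn1a* overlaps 2 noncoding models on the other strand, one of which is Dino, and whether the counting used strand is not given in the sources used here.

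*Ccng1* encodes cyclin G1, which takes part in the regulation of MDM2 and p53. Its FL/FL libraries after 4-OHT were at 239 and 256 CPM on day 3, above the WT/FL libraries at 187 and 195 CPM. The log2 difference was 0.37 (SE 0.07, adjusted p = 0.000274). On day 4 the levels were 197 and 196 CPM against 145 and 165 CPM, again without overlap (0.34, SE 0.07, adjusted p = 0.000368). Without the WT/FL library at 145 CPM the day 4 difference was 0.25 (adjusted p = 0.0272). On day 2, when *Cdkn1a* had already risen, *Ccng1* pointed the other way: FL/FL libraries were at 197 and 207 CPM and WT/FL libraries at 225 and 243 CPM (-0.21, SE 0.07, adjusted p = 0.0441), which did not pass. *Ccng1* overlaps *Nudcd2* on the other strand.

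Of the death branch, *Bax* encodes the pore-forming protein of the outer mitochondrial membrane. It passed on day 4 only, with FL/FL libraries at 162 and 142 CPM and WT/FL libraries at 122 and 121 CPM (0.33, SE 0.08, adjusted p = 0.00122). The call rested on few libraries. It was lost without the FL/FL library at 162 CPM (0.23, adjusted p = 0.0707) and without either WT/FL library (adjusted p = 0.0116 and 0.0143). Untreated FL/FL libraries on day 4, at 141 and 142 CPM, lay as high as the lower of the treated ones. *Bax* shares 8.51% of its sequence words with transcripts of other genes, mostly the overlapping model Gm45808, and its count is uncertain to that extent.

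*Bbc3* encodes PUMA, which binds the BCL-2 proteins that restrain BAX. On day 4 it was at 33.5 and 31.3 CPM in 4-OHT-treated FL/FL libraries and at 15.8 and 15.4 CPM in WT/FL libraries. The groups were far apart and differed 2.08-fold (log2 1.05, SE 0.31), but the adjusted p was 0.0141, which did not pass. On day 3 levels were 45.7 and 44.8 CPM against 31.3 and 30.6 CPM (0.55, SE 0.29, adjusted p = 0.236). All groups share 1 estimate of the spread per gene, and the wide error moved with a library outside these comparisons. In untreated FL/FL cells on day 1 *Bbc3* was at 15.0 CPM (replicate 1) and 4.07 CPM (replicate 2, 233 counts), and the 6 other libraries of day 1 were at 15.1 to 16.1 CPM. Without replicate 2 of that group the day 4 difference was 1.05 with an adjusted p of 1.19e-11 and the day 3 difference 0.55 with an adjusted p of 2.83e-06. Without replicate 1 the adjusted p-values were 1.22e-11 and 3.03e-06. A fit of only the compared groups gave an adjusted p of 6.48e-07 for day 4, and DESeq2 gave 0.00352. The same library was also low for *Bax* (96.3 against 121 CPM) and *Phlda3* (14.0 against 21.1 CPM) and high for *Ccng1* (186 against 161 CPM) and *Mdm2* (216 against 189 CPM).

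*Eda2r*, on the X chromosome, encodes a death domain-free receptor of the TNF receptor family that binds ectodysplasin A2. It was nearly silent, with 6 to 54 counts per library and at most 1.02 CPM. On day 4 it was at 0.443 and 0.605 CPM in FL/FL and 0.152 and 0.151 CPM in WT/FL libraries after 4-OHT. This is the largest ratio of the 10 genes, 3.41-fold, but also the least certain (log2 1.77, SE 0.65, adjusted p = 0.041), and it did not pass.

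*Mdm2*, the ubiquitin ligase of p53 and one of its most direct targets, was at 161 and 168 CPM in FL/FL and 159 and 146 CPM in WT/FL libraries on day 4 after 4-OHT, which did not overlap but differed by 0.11 (SE 0.07, adjusted p = 0.24). Its largest difference, on day 3, was 159 and 163 against 139 and 139 CPM (0.21, SE 0.07, adjusted p = 0.0249). *Mdm2* passed on none of the 4 days, and DESeq2 called it on day 3 (0.23, adjusted p = 0.00936). *Phlda3* encodes a small pleckstrin homology protein that competes with AKT for membrane lipids. On day 3 its FL/FL libraries were at 31.2 and 32.0 CPM and its WT/FL libraries at 19.3 and 23.3 CPM. The difference was 0.57 (SE 0.13, adjusted p = 0.00311), and it did not pass without 1 of 3 libraries: WT/FL replicate 1 (0.44, adjusted p = 0.0864), FL/FL replicate 1 (adjusted p = 0.0194) or FL/FL replicate 2 (adjusted p = 0.0292). On day 4 the levels were 32.5 and 32.4 against 14.7 and 15.8 CPM. This difference of 2.13-fold (log2 1.09, SE 0.14, adjusted p = 7.06e-07) passed with every library left out in turn. *Phlda3* shares no sequence word with another gene.

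Of the remaining genes, *Trp53inp1*, a nuclear protein that promotes p53 activity and autophagy, was the one called lower. On day 2 FL/FL libraries were at 52.0 and 58.5 CPM and WT/FL libraries at 74.4 and 73.8 CPM (-0.42, SE 0.09, adjusted p = 0.00141). The call was lost without FL/FL replicate 1 (-0.34, adjusted p = 0.0543) and without WT/FL replicate 1 or 2 (adjusted p = 0.0137 and 0.0126). On days 3 and 4 the differences were 0.02 (SE 0.09) and -0.16 (SE 0.09). *Zmat3*, which encodes a zinc finger protein that binds RNA, passed on no day. Its differences ran from -0.19 on days 1 and 2 to 0.16 on day 3 and 0.04 on day 4, with SEs of 0.07 to 0.08. *Gdf15* encodes a secreted cytokine of stressed cells. After 4-OHT it was at 30.7 and 32.6 CPM in FL/FL and 22.8 and 25.6 CPM in WT/FL libraries on day 2 (0.39, SE 0.14, adjusted p = 0.0719). On day 3 it was at 29.9 and 26.8 against 12.9 and 13.7 CPM, a 2.13-fold difference (log2 1.09, SE 0.14, adjusted p = 3.8e-06). On day 4 the WT/FL libraries had risen again to 20.0 and 22.1 CPM while FL/FL libraries stayed at 29.4 and 28.4 CPM, and the difference of 0.46 (SE 0.14, adjusted p = 0.0146) did not pass. The decline of the difference from day 3 to day 4 (-0.63, SE 0.20, adjusted p = 0.0558) did not pass either. The day 4 difference passed without either untreated WT/FL library of day 1 (adjusted p = 0.0035 for each) or either 4-OHT-treated one (0.0064 and 0.00649), and DESeq2 gave 0.00396.

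The control comparisons asked whether the genotypes differed without 4-OHT and whether 4-OHT itself moved these genes. In untreated cells no member passed on any day, with 0% of all genes called on days 1, 2 and 3 and 0.0655% on day 4. At an unadjusted p below 0.05 there were 4 members on day 1, 0 on days 2 and 3 and 3 on day 4. Of all 15257 genes, 1129, 588, 468 and 2414 were below it on days 1 to 4. Without replicate 1 of untreated FL/FL on day 1, which leaves the library that was low for these genes, *Bbc3* (-1.97), *Bax* (-0.37) and *Phlda3* (-0.66) were called lower on that day. *Cdkn1a* was at 241 and 245 CPM in untreated FL/FL and 221 and 221 CPM in untreated WT/FL libraries on day 4, a difference of 0.14 (SE 0.06, adjusted p = 0.211). In WT/FL cells, 4-OHT against no treatment gave no call among the members on any day either, where 0.00655%, 0.0918%, 0.341% and 0.216% of all genes were called on days 1 to 4. Only 1 of these 40 tests had an unadjusted p below 0.05, as had 378, 530, 1281 and 1080 of all 15257 genes on days 1 to 4. DESeq2 called no member in either control comparison. On day 4 *Cdkn1a* changed by 0.06 (SE 0.06) with 4-OHT in WT/FL cells.

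In FL/FL cells, 4-OHT against no treatment uses the same 4-OHT-treated FL/FL libraries as the genotype comparison and is given beside it, not as a further test. Of its 40 tests 9 passed upwards and 1 downwards, where 0.0131%, 11.1%, 15.7% and 21.4% of all genes were called on days 1 to 4. *Cdkn1a* rose by 0.41, 0.58 and 0.98 on days 2, 3 and 4 (SE 0.06 each). *Phlda3* rose by 0.55 and 0.84 on days 3 and 4, *Ccng1* by 0.40 and 0.33 on the same days, *Gdf15* by 1.06 and *Mdm2* by 0.34 on day 3, and *Trp53inp1* fell by 0.42 on day 2. More passed upwards when either untreated FL/FL library of day 1 was left out, but the share of all genes in those fits was not computed. Without replicate 1, the day 1 changes of *Bax* (0.36), *Bbc3* (1.94) and *Phlda3* (0.69) rested on the single library that was low for these genes. The *Trp53inp1* call was lost without untreated FL/FL replicate 2 (adjusted p = 0.0408) or 4-OHT-treated FL/FL replicate 1 of day 2 (0.0419), and the *Ccng1* call of day 4 without untreated FL/FL replicate 2 (0.0118). The *Mdm2* call was lost without untreated FL/FL replicate 1 of day 3 (0.27, adjusted p = 0.0195). The *Phlda3* call of day 3 was lost without any 1 of its 4 libraries (adjusted p = 0.0151 to 0.0561).

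The interaction asked whether the genotype difference was larger after 4-OHT than without it. It passed for *Cdkn1a* on day 2 (0.41, SE 0.08, adjusted p = 0.00099), day 3 (0.53, SE 0.08, adjusted p = 6.58e-05) and day 4 (0.91, SE 0.08, adjusted p = 3.09e-09). It also passed for *Gdf15* on day 3 (1.09, SE 0.21, adjusted p = 0.000883) and for *Phlda3* on day 4 (0.81, SE 0.19, adjusted p = 0.00377). For *Ccng1* the interaction was 0.37 on day 3 (adjusted p = 0.0167) and 0.33 on day 4 (adjusted p = 0.0224), which did not pass. It passed in DESeq2 (adjusted p = 0.00324 and 0.00711), with only the compared groups fitted (0.00496 and 0.00928) and without either untreated FL/FL library of day 1 (0.00594 to 0.0096). For *Bax* on day 4 it was 0.12 (SE 0.11, adjusted p = 0.527). These are 5 of 40 tests, with 0.00655%, 4.04%, 4.65% and 10.4% of all genes called on days 1 to 4. More passed when either untreated FL/FL library of day 1 was left out, in fits where the share of all genes was not computed. The *Phlda3* call was lost without 7 of its 8 libraries in turn (highest adjusted p 0.026, without 4-OHT-treated WT/FL replicate 1). The *Cdkn1a* call of day 2 was lost without replicate 1 of untreated WT/FL (adjusted p = 0.0165), replicate 1 of untreated FL/FL (0.0107) or replicate 2 of 4-OHT-treated FL/FL (0.0131). For *Bbc3* on day 4 the interaction was 0.93 (adjusted p = 0.179), and without the low library of day 1 it was 0.93 with an adjusted p of 3.31e-07.

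Several of the genes also changed over the days in all groups. From day 1 to day 4, 8 members rose and 1 fell in 4-OHT-treated FL/FL cells, 3 rose and 1 fell in untreated FL/FL, 2 rose and 4 fell in 4-OHT-treated WT/FL and 2 rose and 3 fell in untreated WT/FL cells. Of all genes, 28.3% rose and 27.7% fell in the first group, 27.7% and 26.7% in the second, 27.7% and 26.7% in the third and 27.5% and 26.3% in the fourth. *Trp53inp1* and *Gdf15* rose in all 4 groups, by 1.25 to 1.71 and by 1.16 to 1.98 on the log2 scale, and *Mdm2* fell in all 4, by 0.23 to 0.46. *Cdkn1a* and *Phlda3* split by group. In WT/FL cells *Cdkn1a* fell between day 1 and day 4 (-0.33 after 4-OHT and -0.38 untreated) and *Phlda3* fell as well (-0.58 and -0.56). In 4-OHT-treated FL/FL cells they rose by 0.78 and 0.52, and in untreated FL/FL cells they changed by -0.11 (adjusted p = 0.09) and 0.04 (adjusted p = 0.798). These end points hide a rise between them. In untreated WT/FL cells the *Cdkn1a* means of days 1 to 4 were 288, 378, 333 and 221 CPM. *Ccng1*, *Bax*, *Bbc3*, *Phlda3* and *Zmat3* were also highest on day 2 there. *Trp53inp1* was highest on day 3, *Gdf15* on day 4, and *Mdm2* and *Eda2r* on day 1. Steps between single days within a group were not tested. *Bbc3* in 4-OHT-treated FL/FL cells rose by 1.05 (adjusted p = 0.00614), a call that was lost without any 1 of its 4 libraries (adjusted p = 0.0196 to 0.0375). *Bax* rose in FL/FL cells with and without 4-OHT, by 0.30 and 0.38. The untreated value ran from 0.22 to 0.56 with 1 library left out, and its call was lost with only the compared groups fitted (0.34, adjusted p = 0.0382). The *Bax* call after 4-OHT was lost without the day 4 library at 162 CPM (0.20, adjusted p = 0.0519). In the same cells *Zmat3* (0.26, adjusted p = 0.00592) lost its call without 3 of its 4 libraries and in DESeq2 (0.24, adjusted p = 0.0127), *Ccng1* (0.23, adjusted p = 0.00532) without 3 libraries (0.0234 to 0.0839), and *Phlda3* without replicate 1 of day 1 (0.0418) or of day 4 (0.0109). *Eda2r* fell in 4-OHT-treated WT/FL cells (-1.99, adjusted p = 0.00779), a call lost without any 1 of its 4 libraries. Further losses were *Mdm2* in 4-OHT-treated FL/FL cells (0.0311 and 0.0379), *Mdm2* and *Phlda3* in untreated WT/FL cells (0.0165 to 0.039) and *Phlda3* in 4-OHT-treated WT/FL cells (0.0117).

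Whether *Cdkn1a* moves with the others was looked at in 3 ways. In the first, the change of the genotype difference between successive days was tested after the values had been seen. From day 1 to day 2 it grew for *Cdkn1a* by 0.48 (SE 0.08, adjusted p = 0.000275) and dropped for *Trp53inp1* by 0.56 (SE 0.13, adjusted p = 0.00791), while the other 8 genes did not pass (3.02% of all genes called). Among these, *Gdf15* had a larger estimate than *Cdkn1a* (0.75, SE 0.21, adjusted p = 0.0275), which passed in DESeq2 (0.76, adjusted p = 0.00521), without the filter on low counts (adjusted p = 0.000237) and without untreated WT/FL replicate 1 or 2 (0.00635 and 0.00639) or 4-OHT-treated WT/FL replicate 1 of day 1 (0.00398). From day 2 to day 3 the estimate was positive for all 10 genes, with a median of 0.43 against -0.01 for all genes, but it passed for *Ccng1* alone (0.59, SE 0.10, adjusted p = 0.00114, 0.905% of all genes called), and *Cdkn1a* changed by 0.16 (adjusted p = 0.343). From day 3 to day 4 it grew for *Cdkn1a* by 0.47 (SE 0.08, adjusted p = 0.000277, 3.7% of all genes called) and passed for no other member. With 1 library left out at a time, this estimate ran from 0.43 to 0.50. That of *Phlda3*, which did not pass, ran from 0.38 to 0.65, so it was of similar size but less certain. The *Ccng1* call was lost without replicate 2 of 4-OHT-treated WT/FL on day 2, replicate 1 of FL/FL on day 2 or replicate 2 of FL/FL on day 3 (adjusted p = 0.0106 to 0.0135), and that of *Trp53inp1* without any 1 of 8 libraries (adjusted p = 0.0103 to 0.064). For *Bbc3* the change from day 3 to day 4 was 0.51 (adjusted p = 0.609), and 0.50 with an adjusted p of 0.0024 without the low library of day 1.

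In the second, *Cdkn1a* was set against the median log2 CPM of the other 9 genes in each library, as a description. On day 1 the 2 libraries of 4-OHT-treated FL/FL cells were 3.52 above that median, inside the range of 3.37 to 3.71 of the other 6 libraries. On day 2 they were at 3.24 and 3.26 against 2.43 to 2.68, on day 3 at 2.90 and 3.05 against 2.35 to 2.63, and on day 4 at 3.35 and 3.54 against 2.30 to 2.64. From day 2 on, the 4-OHT-treated FL/FL libraries held more *Cdkn1a* relative to that median than any other library of the same day. Against 4-OHT-treated WT/FL cells the difference was 0.62 (day 2), 0.42 (day 3) and 1.01 (day 4). The median of 9 genes is the level of 1 of them in each library, a member of middle level such as *Zmat3* or *Trp53inp1*. This measure therefore says little of the other members. The median of the 9 other members' own log2 differences was -0.04 (day 2), 0.37 (day 3) and 0.34 (day 4), beside 0.42, 0.58 and 1.05 for *Cdkn1a*, and on day 4 the estimates of *Phlda3* (1.09) and *Bbc3* (1.05) were as high as that of *Cdkn1a*.

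**Figure D3:**
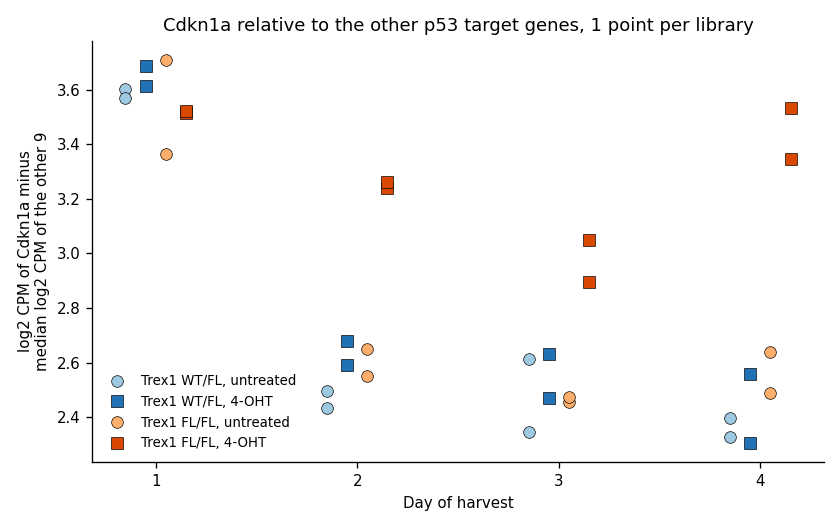
Log2 CPM of Cdkn1a minus the median log2 CPM of the other 9 genes (vertical axis, not starting at 0) by day of harvest, 1 point per library. The 2 libraries of 4-OHT-treated FL/FL cells lie among the others on day 1 and above them on days 2, 3 and 4.

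In the third, the pattern over the 16 group means was compared, without a test, since groups of one day share their stage of culture. Pearson's r with *Cdkn1a* was 0.906 for *Phlda3*, 0.841 for *Ccng1*, 0.802 for *Bbc3*, 0.774 for *Bax*, 0.636 for *Zmat3*, 0.495 for *Gdf15*, 0.484 for *Eda2r*, 0.356 for *Trp53inp1* and -0.15 for *Mdm2*. *Phlda3* ranked 61st and *Mdm2* 9265th of 15256 genes. The 5 genes closest to *Cdkn1a* were *Rbm43* (0.977), *Aim2* (0.973), *Tpst1* (0.972), *Slfn3* (0.967) and *Prr5l* (0.966), none of them a member. After the mean of each day was subtracted, which leaves genotype and treatment, *Phlda3* still came first at 0.894 (rank 751), then *Gdf15* at 0.759, *Bbc3* at 0.744, *Eda2r* at 0.741, *Ccng1* at 0.703, *Bax* at 0.68 and *Mdm2* at 0.641. *Zmat3* was at 0.067 and *Trp53inp1* at -0.622 (rank 11903). The closest genes were then *Ccnd2* (0.988), *Traf1* (0.985), *Carhsp1* (0.985), *Npc2* (0.984) and *H2-K1* (0.983). *Mdm2* and *Trp53inp1* changed sign with the removal of the day means. *Phlda3* was nearest among the members by both of these measures, whereas by Spearman's rho over the 16 group means *Ccng1* (0.924) came before *Phlda3* (0.876) and *Bbc3* (0.832). The group means include the untreated FL/FL pair of day 1, where *Bbc3* was at 15.0 and 4.07 CPM. No likeness was computed without that pair, so the order of the members may depend on it.

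**Figure D4:**
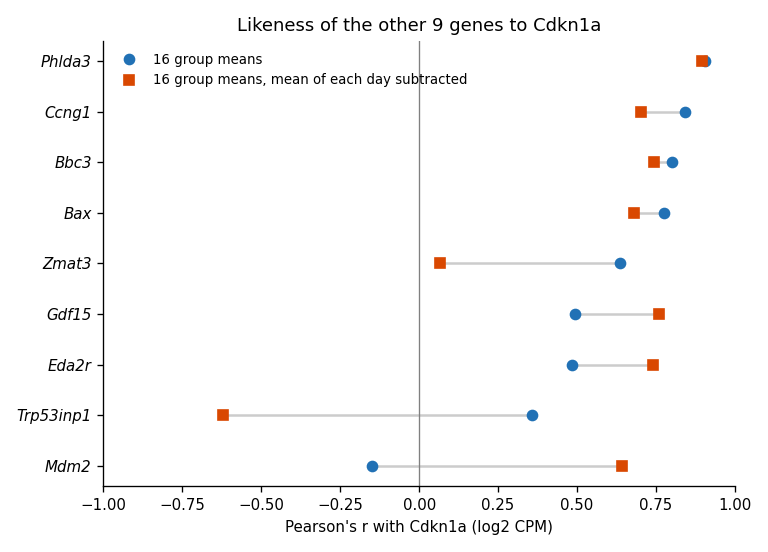
Pearson's r with Cdkn1a (horizontal axis) of each of the other 9 genes over 16 group means of log2 CPM (blue circles) and after subtraction of the mean of each day (orange squares). Phlda3 is highest by both, and Mdm2 and Trp53inp1 change sign. The group means include the untreated FL/FL pair of day 1, which stood apart.

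*Trp53* was at 68.1 and 65.8 CPM in FL/FL and 60.2 and 64.4 CPM in WT/FL libraries after 4-OHT on day 4 (0.11, SE 0.05, adjusted p = 0.14), and it fell between day 1 and day 4 by 0.61 in 4-OHT-treated FL/FL and by 0.68 in untreated WT/FL cells. *Mdm4*, the MDM2 relative that inhibits p53, differed by -0.19 on day 4 (SE 0.10, adjusted p = 0.147). None of 16 regulators passed on days 1, 2 or 3. On day 4, when 11.7% of all genes fell and 9.84% rose, 3 of the 16 fell and none rose. These were *Trp53bp1*, named after its value was seen (-0.25, adjusted p = 0.00747), and the checkpoint kinase genes *Chek1* (1.09 against 2.84 CPM, -1.39, SE 0.26, adjusted p = 0.000137) and *Chek2* (14.0 against 20.7 CPM, -0.56, SE 0.09, adjusted p = 3.74e-05). Activation of p53 acts largely on the protein and was not measured here.

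A further list of 48 p53 targets, of which 45 were tested, split in both directions. On day 2, 6 rose and 3 fell, on day 3, 8 and 3, and on day 4, 12 and 8, against the shares of all genes given above. The median difference was 0.16 on day 4, when that of all genes was -0.04. The largest increases on day 4 were *Trp53i11* (3.65 against 0.888 CPM, 2.05, SE 0.30), *Tap1* (511 against 183 CPM, 1.48, SE 0.08) and *Ccnd1* (239.7 against 127 CPM, 0.92, SE 0.08). *Tap1*, a peptide transporter of antigen presentation, is also inducible by interferon, and *Ccnd1* encodes cyclin D1, which drives the cell cycle. The largest decreases were *Ckap2* (0.771 against 4.16 CPM, -2.44, SE 0.16), *Sulf2* (22.5 against 57.7 CPM, -1.36, SE 0.11) and *Ak1* (4.84 against 9.62 CPM, -0.99, SE 0.13). *Ckap2* encodes a spindle protein of dividing cells. Of 7 other inhibitors of cyclin-dependent kinases or related genes, none rose on any day. *Cdkn1b* (p27), named after its values were seen, was the 1 that fell on days 2 (-0.27, SE 0.07, adjusted p = 0.00489) and 3 (-0.37, SE 0.07, adjusted p = 0.000143), and *Cdkn3*, a phosphatase of dividing cells, was the 1 that fell on day 4 (-2.11, SE 0.37, adjusted p = 8.9e-05). Of all genes, 2.48%, 5.42% and 11.7% fell on days 2, 3 and 4.

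Genes of proliferation moved with the same groups. Of 20 such genes, among those lowered when p21 acts, 4 fell on day 2, 1 on day 3 and 18 on day 4, and none rose. On the same days 2.48%, 5.42% and 11.7% of all genes fell. The median difference of the 20 genes was -0.23, 0.04 and -1.95 on days 2, 3 and 4. On day 4 the largest decreases were *Ccnb2* (0.63 against 8.69 CPM, -3.76, SE 0.19), *Ccna2* (1.26 against 15.1 CPM, -3.58, SE 0.13) and *Plk1* (0.58 against 7.05 CPM, -3.57, SE 0.20). *Mki67* was at 5.76 and 7.66 CPM in FL/FL and 47.9 and 47.2 CPM in WT/FL libraries. On day 3, when *Cdkn1a* was 1.5-fold higher, *Mki67* differed by -0.22 (SE 0.09, adjusted p = 0.114). These genes also fell in all 20 cases between day 1 and day 4 in every group, untreated WT/FL included (median -3.37), where 26.3% to 27.7% of all genes fell. Interferon-inducible genes rose with *Cdkn1a* too. All 10 genes of a reference list rose on days 2, 3 and 4 (medians 1.76, 1.35 and 2.89), where 5.69%, 6.69% and 9.84% of all genes rose. *Isg15* was at 389 and 364 CPM against 47.2 and 53.4 CPM on day 4. The part of proliferation and of interferon in the differences of the p53 targets was not tested.

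**Figure D5:**
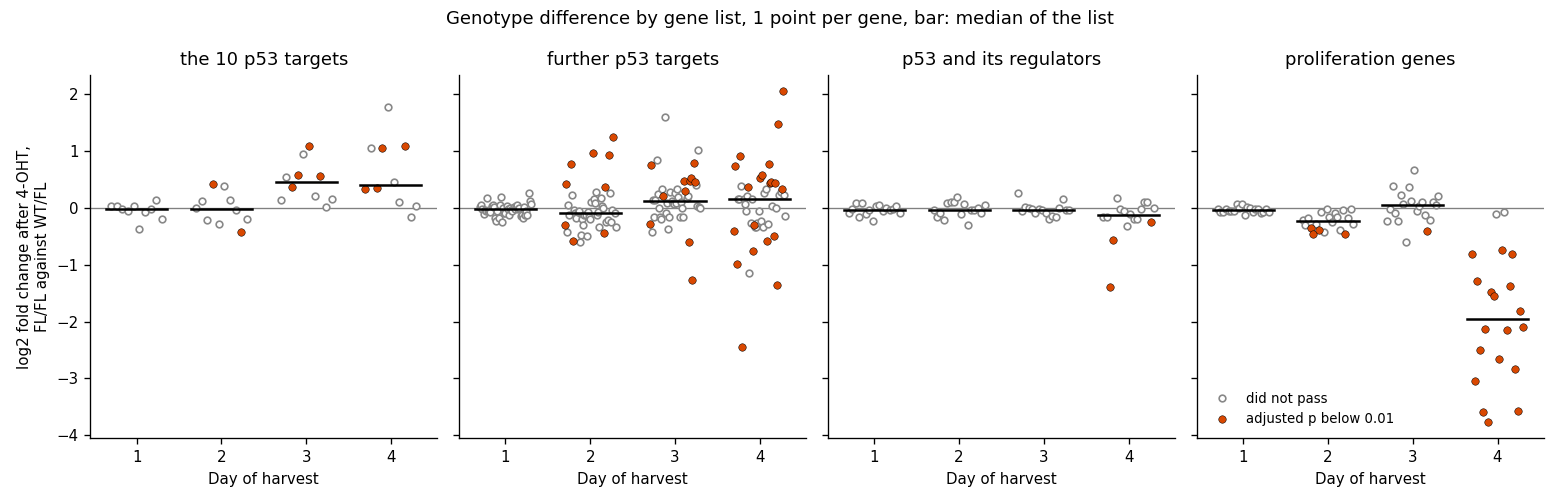
Log2 fold change of FL/FL against WT/FL BMDMs after 4-OHT (vertical axis) on days 1 to 4 for the 10 genes, further p53 targets, p53 with its regulators, and proliferation genes, 1 point per gene with filled points at an adjusted p below 0.01 and a bar at the list's median. The medians of the 10 genes are near 0 on days 1 and 2 and at 0.46 and 0.40 on days 3 and 4, and that of the proliferation genes reaches -1.95 on day 4.

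Per length of exon, the 10 genes covered a wide range. The median over the 16 groups of the mean level was 77.2 CPM per kb for *Bax*, 55.8 for *Cdkn1a*, 42.7 for *Ccng1*, 20.7 for *Mdm2*, 9.61 for *Gdf15*, 9.45 for *Trp53inp1*, 8.62 for *Phlda3*, 6.61 for *Bbc3*, 4.24 for *Zmat3* and 0.0763 for *Eda2r*. The range over groups of *Cdkn1a* (36.5 to 84.9 CPM per kb) overlapped those of *Bax* (58.5 to 87.2) and *Ccng1* (35.3 to 56.3). *Bax* and *Ccng1* did not overlap each other. The ranges from *Gdf15* to *Zmat3* overlapped, and *Mdm2* (16.5 to 26.3) and *Eda2r* stood alone. *Cdkn1a* had its highest group mean, 513 CPM, in 4-OHT-treated FL/FL cells on day 3 and its lowest, 221 CPM, in untreated WT/FL cells on day 4, a ratio of 2.32. *Trp53inp1* (4.86), *Bbc3* (4.74) and *Gdf15* (4.33) varied more between groups, and *Bax* (1.49), *Ccng1* and *Mdm2* (1.59 each) less.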

How the data were processed

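RNA was sequenced in 32 libraries of BMDMs. Per the study's methods, the authors demultiplexed with JE, checked reads with FastQC 11.9, quantified them with Salmon on GRCm39 (version not given in the sources used here) and summarised them with tximport. The deposited values are expected counts per gene, stored as whole numbers. Of 54281 identifiers, 51048 matched GENCODE annotation of GRCm39, and the rest held 0.32% of counts. Genes with a count of at least 10 in enough libraries (filterByExpr) were kept, 15257 in all. TMM factors ran from 0.894 to 1.12. edgeR 4.0.16 (R 4.3.3) fitted 1 mean per group in a quasi-likelihood model with 16 residual degrees of freedom, with Benjamini-Hochberg adjustment over all genes. DESeq2 1.42.0 was an alternative. Scripts were tested on simulated data. Alternatives were other scaling factors, filters, thresholds, only the compared groups and each library left out. The 10 genes and all gene lists were chosen with earlier results of these data known. Named beside them, by rule, were *Trp53* and *Mdm4*, regulators that passed on day 4 with an absolute log2 difference above 0.5, the 3 largest increases and decreases of each other list on day 4, *Mki67*, *Trex1* and *Isg15*, and the 5 genes most like *Cdkn1a*. A further marker list is not reported here. Depth was 35120505 to 63760884 counts per library.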

Additional observations from a re-analysis of the deposited data

Results flagged for a closer look

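In all, 9 differences between groups passed a test of the difference itself, in 5 of the 10 genes. Of 40 tests of the interaction 5 passed, where 0.00655%, 4.04%, 4.65% and 10.4% of all genes were called on days 1 to 4. Of 30 tests of the change between successive days 4 passed, where 3.02%, 0.905% and 3.7% of all genes were called. The genotype difference was larger after 4-OHT than without it for *Cdkn1a* on day 2 (0.41 on the log2 scale), day 3 (0.53) and day 4 (0.91), for *Phlda3* on day 4 (0.81) and for *Gdf15* on day 3 (1.09). The genotype difference after 4-OHT changed between successive days for *Cdkn1a* from day 1 to day 2 (0.48) and from day 3 to day 4 (0.47), for *Ccng1* from day 2 to day 3 (0.59) and for *Trp53inp1* from day 1 to day 2 (-0.56). As given above, the interaction calls of *Cdkn1a* on day 2 and of *Phlda3* were lost without single libraries. So were the calls of *Ccng1* and *Trp53inp1*. Outliers were not looked for within single groups, since each holds 2 libraries; the untreated FL/FL pair of day 1 is described above.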

How the results depend on the processing

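No paired analysis was possible because the labels give no replicate number, animal or batch. The titles are running sample numbers whose consecutive stretches have no stated meaning, and no fit used them as a block. With an absolute log2 difference above 1.5 required as well, the members called after 4-OHT between genotypes went from 9 higher and 1 lower to 0 and 0. Those of the interaction went from 5 to 0, and those of 4-OHT in FL/FL cells from 9 and 1 to 0 and 0. Those between day 1 and day 4 went from 15 and 9 to 5 and 1. Between genotypes after 4-OHT, *Cdkn1a* no longer passed on day 2 (0.42), day 3 (0.58) or day 4 (1.05). Of all 15257 genes, 2, 89, 133 and 454 met this rule between genotypes after 4-OHT on days 1 to 4. For the interaction there were 1, 81, 83 and 343, and for 4-OHT in FL/FL cells 1, 157, 255 and 523. Between day 1 and day 4 there were 2231 in untreated and 2508 in 4-OHT-treated FL/FL cells. In WT/FL cells there were 2123 and 2235. At an adjusted p below 0.05 there were 13 higher and 2 lower between genotypes after 4-OHT, 7 in the interaction, and 11 higher and 2 lower with 4-OHT in FL/FL cells. Without the filter, 1 member was lower between untreated genotypes (*Bbc3* on day 1) and 9 passed in the interaction, and 8 passed there when only the compared groups were fitted. No share of all genes was computed for the looser threshold, without the filter, for the compared groups alone or with 1 library left out. With 1 library left out at a time, the genotype difference after 4-OHT held 7 to 11 higher and 0 to 1 lower calls, the untreated one 0 to 3 lower, the interaction 4 to 10, and 4-OHT in FL/FL cells 7 to 14 higher and 0 to 1 lower. *Cdkn1a* ran from -0.15 to 0.022 on day 1, the positive value without FL/FL replicate 1. Its likeness to *Mdm2* became 0.641 and to *Trp53inp1* -0.622 once day means were removed. Over all differences of the members that were tested, DESeq2 added 9 calls and lost 1, and RLE or upper-quartile factors lost 2 each. A difference that was uncalled under both settings was counted as unchanged whatever its sign. *Eda2r* had no value at a minimum count of 50. The cause of these shifts was not tested. Depth limits *Eda2r*, with 6 to 54 counts per library.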

Other observations

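Among the further p53 targets, some best known for single functions moved in opposite directions between 4-OHT-treated genotypes on day 4, and the ones given here were chosen after their values were seen. *Sesn2*, a stress-inducible inhibitor of mTORC1 signalling, rose by 0.43 (adjusted p = 4.41e-05, edgeR) while its relative *Sesn1* fell by 0.48 (adjusted p = 1.47e-06). *Aen*, an apoptosis-enhancing nuclease, rose by 0.74 (adjusted p = 2.41e-06), and *Fas*, the death receptor, fell by 0.76 (adjusted p = 4.44e-05). *Polh*, the DNA polymerase that reads past ultraviolet lesions, fell by 0.58 (adjusted p = 8.1e-06).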
